A study of Mus musculus with 80 samples.

Results

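Livers taken at circadian time (CT) 28 are described here, 18 h after food had been removed from the fasted mice. They form 8 of the 80 libraries of a time course, 4 titled fasted and 4 titled control, and were chosen by their titles. The mice, of the inbred strain C57BL/6J, were bought at an age of 8 to 12 weeks, kept in light and dark and then moved to constant darkness. Control mice had chow at all times, and fasted mice had none from CT10, while both had water. Each treatment at each time has 2 males and 2 females, so that every value below comes from 4 fasted and 4 control mice, each sampled once. CT28 lies 4 h into the subjective day, the rest phase of a nocturnal animal, in which the controls also eat little. The detailed labels disagree with the titles on treatment for 40 of the 80 libraries and on sex for 40, and only the titles were used.

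When food is absent, the liver draws on fatty acids released from adipose tissue. It oxidizes them in mitochondria and peroxisomes, turns part of them into ketone bodies and makes glucose for other organs. The nuclear receptor PPARA drives many of the genes for oxidation, the SREBP factors drive sterol and fatty acid synthesis in the fed liver, and glucagon, low insulin and glucocorticoids drive glucose production. The liver clock, a loop in which CLOCK and BMAL1 activate the genes of their own repressors, runs on beside this and responds to feeding.

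The counts per library lay between 40744877 and 47234883, and the difference of their means, fasted minus control -1244893.75, did not pass a two-sided exact permutation test (p = 0.4, smallest possible p 0.0286). Xist, transcribed from the inactive X chromosome, lay at 1044 to 1380 CPM in the 4 libraries titled female and at no more than 1.37 CPM in the 4 titled male, and the Y-linked Ddx3y went the other way in 8 of 8. Albumin was the defining hepatocyte transcript, with 68289, 53865, 79293 and 76756 CPM in the fasted and 46390, 53212, 71670 and 81957 CPM in the control libraries. The correlation of log2 levels over genes was 0.968 to 0.986 among fasted, 0.965 to 0.987 among control and 0.953 to 0.975 between fasted and control libraries. In a principal component analysis the 2 mice of each sex and treatment lay next to each other, so that sex and treatment both shaped the first component (33.6% of the variance) and the second (28.2%). Both control females stood apart from the control males in Dbp, Bmal1 and Npas2. In 13 of the genes named here 1 control lay far from the other 3, and that library was a control female each time. Over both treatments this gap check flagged 21 of 362 groups of 4 libraries, where chance alone gives about 1 in 20. Without the first control female 3566 genes were called at CT28, and without the second 3499. The sterol genes called lower numbered 24 and 26 in these fits, and the genes of mitochondrial oxidation called higher 16 and 15, close to the values with all libraries given below.

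Levels are given in CPM, the counts of a gene scaled to the size of its library after TMM. Where 4 values follow each other, they are the 2 males and then the 2 females. Of 78275 genes listed, 21187 had enough counts to be tested, and 4448 of them (21% of those tested) differed between fasted and control mice at an adjusted p under 0.05, 2094 of them higher in fasted mice (9.88%) and 2354 lower (11.1%). A change of at least 2 times was fitted for 678 of the rises and 688 of the falls. The 4 fasted libraries all lay above the 4 control libraries for 2016 genes (9.52%) and all below them for 1909 (9.01%). The median log2 change of all tested genes was 0.0068. Counts of called list members below are to be read against 9.88% higher and 11.1% lower, and several lie near these shares. Because the tissue was whole liver, fewer cells of a type and less RNA per cell cannot be told apart.

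**Figure D1:**
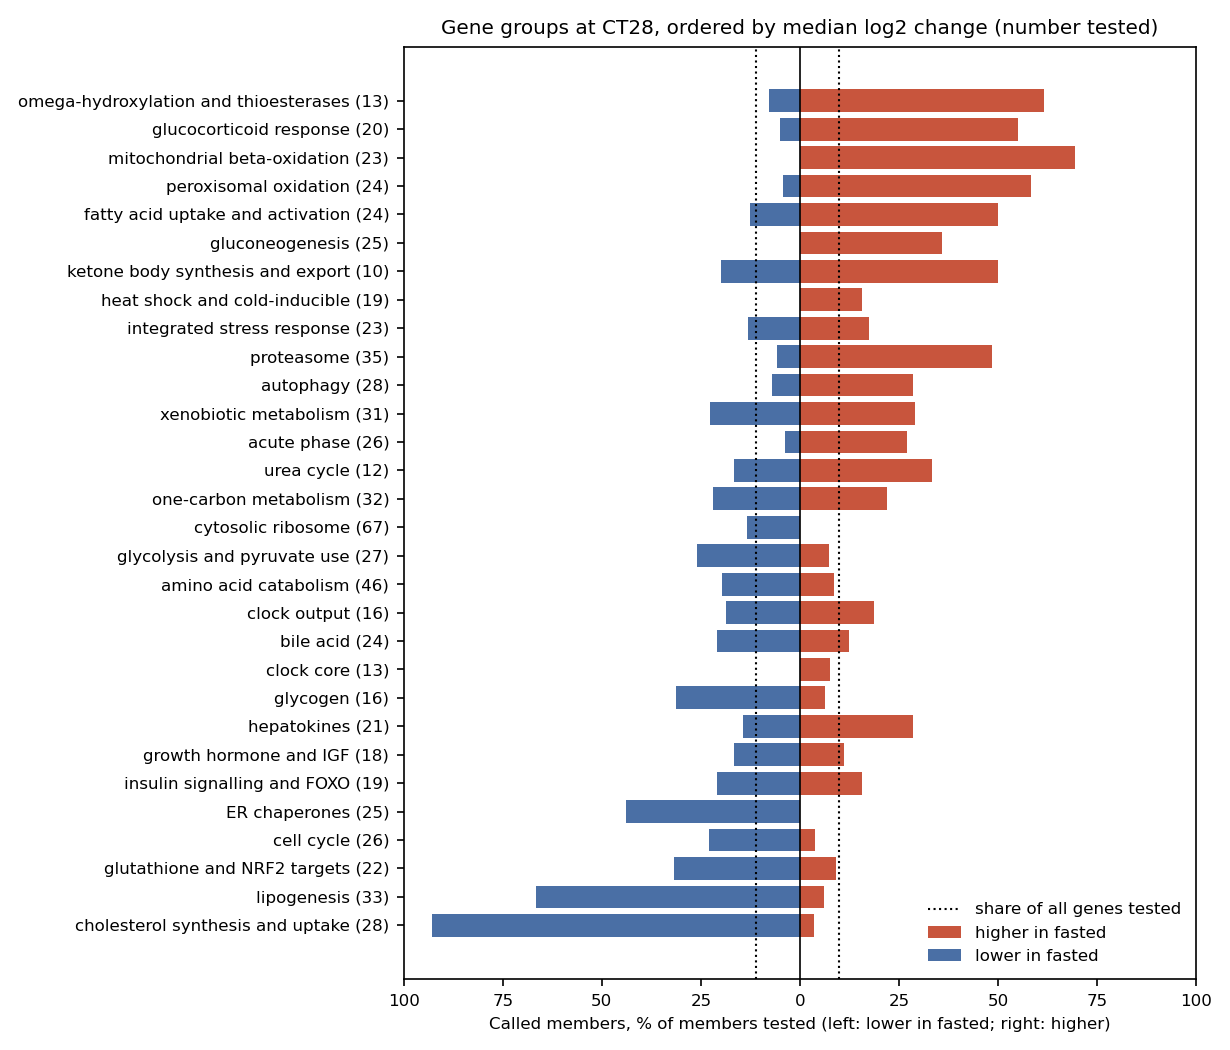
Gene groups at CT28: each bar gives the share of the tested members that were called higher (right) or lower (left) in fasted mice, with the number tested in brackets and the share of all tested genes as dotted lines at 9.88% and 11.1%. Cholesterol synthesis and uptake, with 26 of 28 members lower, lies at the bottom, and mitochondrial beta-oxidation, with 16 of 23 higher, lies among the upper bars.

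Transcripts of cholesterol synthesis fell as a block. Of 28 genes of sterol synthesis and uptake, 26 were lower in fasted mice and 1 was higher, with a median log2 change of -2.40. Hmgcs1 (ENSMUSG00000093930.3), which makes the HMG-CoA that enters the pathway, stood at 58.4, 51.2, 59.5 and 62.2 CPM in fasted and at 438, 426, 1240 and 406 CPM in control mice. No fasted library came near a control library, and the first control female was the highest of all. Hmgcs1 was 10.3-fold lower with fasting (log2 change -3.37, standard error 0.29, adjusted p = 6.32e-12). All adjusted p here are those of the quasi-likelihood test in edgeR unless another tool is named. Its promoter is shown because it holds the sterol regulatory element, the letters TCACNCCAC to which SREBP factors bind, in capitals, 137 bases before the start site. The window is chr13:119690101-119690350 on the plus strand of GRCm38.p6, read from RefSeq, and holds the 250 bases before the start.

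Hmgcs1: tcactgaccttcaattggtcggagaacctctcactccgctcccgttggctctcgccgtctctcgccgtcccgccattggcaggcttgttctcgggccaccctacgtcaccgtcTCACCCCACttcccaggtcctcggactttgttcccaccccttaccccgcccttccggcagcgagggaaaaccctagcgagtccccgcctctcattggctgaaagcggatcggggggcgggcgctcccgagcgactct

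Among 20 members of the sterol group with a promoter window of 250 bases before to 50 after the start, Hmgcs1 was the 1 with these letters on either strand, against 1.44% of 27025 genes with a window, 2.25% of those that fell and 1.41% of those that rose. Ehhadh, a gene of peroxisomal oxidation that rose, also held them, 171 bases before its start site. Of 27 lipogenic genes with a window, 0 held them. The match describes letters and not binding.

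Larger falls came further along the pathway. Fdps, which makes farnesyl diphosphate, stood at 7.45, 12.6, 10.1 and 6.78 CPM in fasted and 271, 207, 320.1 and 189 CPM in control mice, 26.8-fold lower (adjusted p = 1.47e-16). Mvd stood at 1.04, 2.38, 1.51 and 1.38 against 32.7, 25.7, 79.5 and 27.8 CPM, and Idi1 at 3.13, 4.97, 4.34 and 3.56 against 80.5, 78.4, 142 and 65.8 CPM. Sqle, the squalene epoxidase, stood at 2.96, 7.13, 5.38 and 4.22 against 91.8, 82.4, 167 and 93 CPM, a log2 change of -4.43. In none of these did a fasted mouse overlap a control, which the rule that named them among the largest falls required. Insig1, which holds SREBP in the endoplasmic reticulum and is itself a target of it, fell by 3.98, Srebf2 by 1.20 and Scap by 0.40 on the log2 scale. The call of Scap was weak (adjusted p = 0.0255) and was lost under 8 of 19 alternatives. Mylip, a ubiquitin ligase gene that liver X receptors induce, was the member that rose, by 0.89 on the log2 scale (adjusted p = 1.26e-06). Ggps1, which makes geranylgeranyl diphosphate from the product of Fdps, had a log2 change of -0.06 and was not called.

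Transcripts of fatty acid synthesis fell too. Of 33 lipogenic genes, 22 were lower and 2 higher, with a median log2 change of -0.89. Srebf1, the factor that drives the group, stood at 43.1, 34.4, 65.3 and 38.3 CPM in fasted and 259.8, 346, 414 and 467 CPM in control mice and was 8.15-fold lower (log2 change -3.03, standard error 0.29, adjusted p = 7.93e-11). Fasn, the fatty acid synthase, stood at 126, 199, 256 and 161 CPM against 842, 811, 2394 and 929 CPM. The first control female again held the highest level, and Fasn was 6.37-fold lower. Acly and Acss2, which supply acetyl-CoA, fell by 2.54 and 2.57 on the log2 scale, and Acaca, the carboxylase that commits it to fatty acids, by 1.10. Pnpla3, whose product acts on lipid droplets, stood at 0.148, 0.0454, 0.378 and 0.227 against 0.959, 0.603, 18.2 and 9.21 CPM (log2 change -4.25). Thrsp fell by 3.36 and Scd1, the stearoyl-CoA desaturase, by 2.22 on the log2 scale. Without the second fasted male the fall of Thrsp became 4.11, and without the first fasted female that of Scd1 became 3.13. Insig2, which unlike Insig1 is induced in fasting, rose by 1.63 and Dgat1, which completes triglycerides from fatty acids taken up, rose by 0.75.

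**Figure D2:**
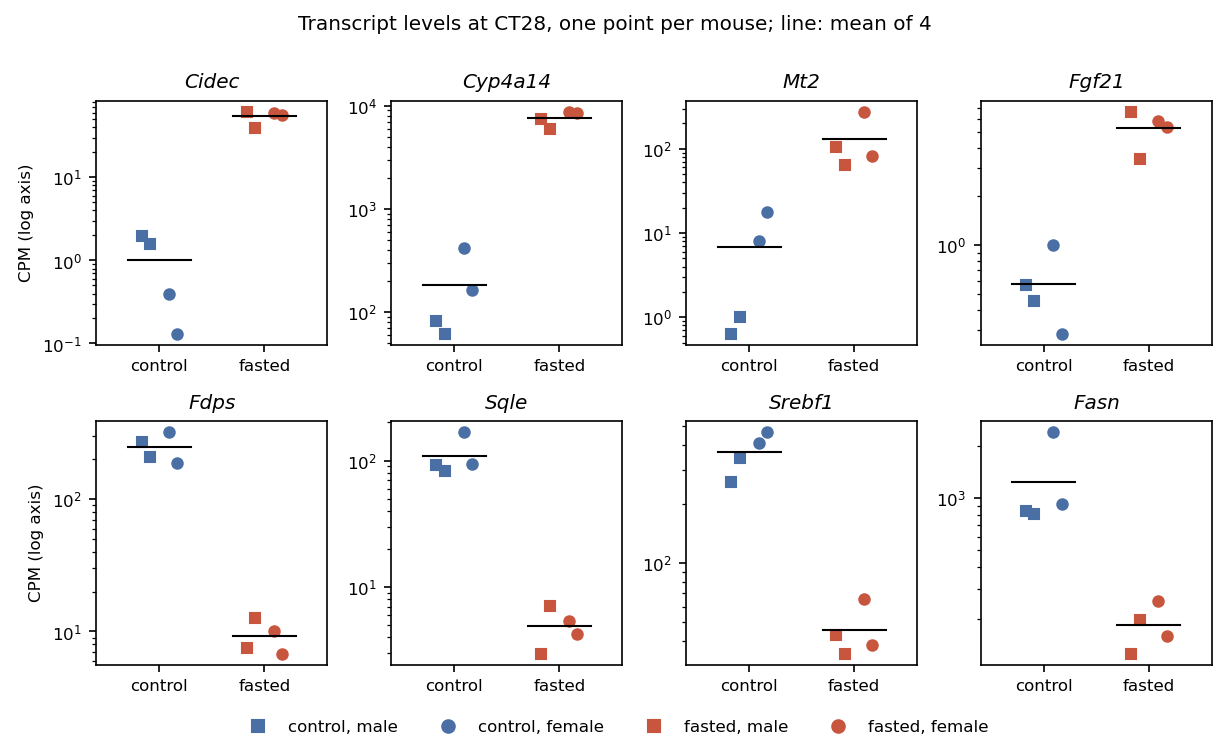
Levels of 8 genes at CT28 in CPM on a log axis, with one point per mouse, squares for males and circles for females, and a line at the mean of 4. Cidec, Cyp4a14, Mt2 and Fgf21 are higher and Fdps, Sqle, Srebf1 and Fasn lower in fasted mice. Fasted and control mice do not overlap in any of the 8 panels. For Cidec, Cyp4a14, Mt2, Fdps and Sqle the rule that named them required this. Over all tested genes, the fasted mice lay wholly above the controls for 9.52% and wholly below for 9.01%.

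Most genes of fatty acid oxidation rose. Of 23 genes of mitochondrial beta-oxidation, 16 were higher and none lower, with a median log2 change of 0.77, and of 24 peroxisomal genes 14 were higher and 1 lower. Cpt1a, the gate for long-chain fatty acids into mitochondria, stood at 1120, 1012, 1006 and 1103 CPM in fasted and 429, 446, 358 and 285 CPM in control mice and was 2.83-fold higher (standard error 0.16 on the log2 scale, adjusted p = 8.59e-10). The carnitine carrier Slc25a20 rose by 1.08 on the log2 scale, the dehydrogenases Acadm and Acadl by 1.22 and 0.99, and both subunits of the trifunctional protein, Hadha and Hadhb, by 0.77 and 1.05. Echs1, the hydratase for short chains, was not called (-0.25 on the log2 scale, adjusted p = 0.059), but was called lower under 3 of 19 alternatives: without the second control female (-0.337), with a CPM filter (-0.24) and with the DESeq2 Wald test (-0.242). In peroxisomes the bifunctional enzyme Ehhadh rose most, from 282, 324, 434 and 301 CPM to 1552, 1245, 3817 and 3755 CPM, a log2 change of 2.79. Crat rose by 1.70 and Pex11a, needed for peroxisomes to divide, by 1.42. Acox3, for branched chains, was the member that fell (-0.34), a call lost without any 1 of 5 libraries.

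Transcripts of microsomal omega-oxidation and of the thioesterases rose as well. Of 13 members, 8 were higher and 1 lower, with a median log2 change of 1.48. Cyp4a14, which hydroxylates the far end of fatty acids, stood at 7486, 5913, 8659 and 8483 CPM in fasted and 81.1, 61.9, 419 and 163 CPM in control mice, 52.5-fold higher (adjusted p = 5.37e-10). Its relative Cyp4a10 stood at 3686, 4438, 4321 and 4331 against 241, 178, 446 and 111 CPM, 17.3-fold higher. In both genes the controls lay further apart, as ratios, than the fasted mice did, and without the first control female the log2 change of Cyp4a10 went from 4.12 to 4.78. Cyp4a31 rose by 3.67 and Acot1, a cytosolic acyl-CoA thioesterase, by 3.54 on the log2 scale. The Cyp4a genes and the Acot1 to Acot4 genes are near copies of each other, so that reads may have been split between them and the values of single members are uncertain. Cyp4f14, of a neighbouring family, was the member that fell, by 1.86.

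Many genes of fatty acid uptake, activation and storage rose. Of 24 members tested, 12 were higher and 3 lower, the latter a share near that of all genes. Cidec, which coats and fuses lipid droplets, had the largest rise of all genes named by the rule, from 1.96, 1.57, 0.394 and 0.132 CPM in controls to 61.3, 39.7, 60.2 and 56.6 CPM in fasted mice, 78.4-fold (log2 change 6.29, standard error 0.48, adjusted p = 8.09e-14). The control females lay below the control males, and the 4 fasted mice lay close together. Its relative Cidea had at most 6 counts in any library and was not tested. The droplet coats Plin4, Plin5 and Plin2 rose by 3.41, 2.04 and 1.13 on the log2 scale, and the lipase Pnpla2, which opens the droplet store, by 1.54. The transporter Slc27a1 rose by 2.46 and Cd36 by 1.06. The 3 that fell were the acyl-CoA ligases Acsl3 (-2.03), Acsl5 (-0.65) and Acsm1 (-0.99). Ppara itself stood at 147, 190.4, 157 and 169 CPM in fasted and 149, 151, 133 and 83.5 CPM in control mice and was not called (log2 change 0.38, adjusted p = 0.245).

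Of 10 ketone body genes 5 were higher and 2 lower. Slc16a1, which exports ketone bodies, rose by 0.57 on the log2 scale. Aacs, the cytosolic enzyme that turns acetoacetate back towards lipid synthesis, fell from 137, 44.8, 152 and 60.1 CPM to 3.72, 5.81, 9.64 and 5.23 CPM, 16.5-fold (adjusted p = 1.24e-08). Bdh2 fell by 1.76, and Bdh1, which makes beta-hydroxybutyrate, was not called.

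Fewer genes of glucose production were called. Of 25 gluconeogenic genes 9 were higher and none lower, with a median log2 change of 0.34. Pck1, the phosphoenolpyruvate carboxykinase, stood at 4159, 4277, 1598 and 3317 CPM in fasted and 1849, 2444, 1156 and 2277 CPM in control mice. The first fasted female lay below 3 of the 4 controls, so that the groups overlapped, and the fitted rise was 1.68-fold (log2 change 0.75, standard error 0.25, adjusted p = 0.0254). This call was lost under 8 of 19 alternatives, among them a fit of the 8 CT28 libraries alone (log2 change 0.744, adjusted p = 0.0984). G6pc1, the glucose-6-phosphatase, stood at 536, 244, 365 and 458 against 456, 459, 316 and 477 CPM and was not called (log2 change -0.09, adjusted p = 0.88). Fbp1 was not called either. The members that rose were Pcx (0.86), which makes oxaloacetate from pyruvate, Gpt2 (1.05) and Ldha (1.07), which lead alanine and lactate into the pathway, Gk (0.88) for glycerol, Slc37a4 (1.23), the carrier of glucose 6-phosphate, and Creb3l3 (0.67), Mdh2 (0.34) and Crtc2 (0.31 on the log2 scale), the last not called without the first fasted female. Ppargc1a, a coactivator of the group, had a log2 change of 0.86 with an adjusted p of 0.0651.

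Of 27 glycolytic and pyruvate genes 7 were lower and 2 higher. Pklr, the liver pyruvate kinase, fell by 2.21, and Mlxipl, the carbohydrate-responsive factor that drives it, by 1.21 on the log2 scale. Tpi1, the triose phosphate isomerase, rose (0.33) and was not called without the first control female, the second control male or the first fasted male. Pdk4, the kinase that shuts pyruvate dehydrogenase, stood at 20.1, 8.38, 13.6 and 17.3 against 9.82, 13.9, 37.9 and 17.8 CPM and was not called. Of 16 glycogen genes, 5 were lower, among them the phosphorylase Pygl (-1.02) and the branching enzyme Gbe1 (-0.71). Without the first control female the fall of Gbe1 was 0.422 and no longer called (adjusted p = 0.133). The synthase Gys2 was the member that rose, by 0.71 on the log2 scale. Its fitted change was 0.14 in males and 1.28 in females, a difference that was not called (adjusted p = 0.259).

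Among secreted factors, Fgf21 (ENSMUSG00000030827.6), the fasting hormone that PPARA induces in liver, stood at 6.63, 3.43, 5.83 and 5.33 CPM in fasted and 0.571, 0.452, 1.0 and 0.285 CPM in control mice. These levels are low, and every fasted mouse exceeded every control, with a rise of 9.14-fold (log2 change 3.19, standard error 0.72, adjusted p = 0.000838). Without the first control female the log2 change became 3.79. Its promoter window, chr7:45615491-45615740 on the minus strand of GRCm38.p6 from RefSeq and written in the direction of transcription, is shown for its E-box, the letters CACGTG in capitals, 50 bases before the start site.

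Fgf21: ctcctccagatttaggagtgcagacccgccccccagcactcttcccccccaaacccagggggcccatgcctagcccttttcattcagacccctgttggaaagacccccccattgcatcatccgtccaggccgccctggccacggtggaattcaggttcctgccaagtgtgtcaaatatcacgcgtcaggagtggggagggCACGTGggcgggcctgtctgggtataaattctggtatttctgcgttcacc

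An E-box stood in the window of 11.9% of the genes that rose, 9.99% of those that fell and 10.8% of all tested genes with a window.

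Of 21 hepatokine genes 6 were higher and 3 lower. Angptl4, an inhibitor of lipoprotein lipase, stood at 138, 159, 90.8 and 119.8 against 61.5, 59.4, 61.3 and 5.88 CPM. The second control female lay far below the other 3 controls, and the rise (2.77-fold, adjusted p = 0.012) turned on the control females. Without the second control female the log2 change was 1.04 and not called (adjusted p = 0.0974), and without the first it was 2.73. Angptl8, which insulin induces, fell by 1.69 on the log2 scale. Inhbb, which encodes a subunit of activin B, rose by 1.68. Lepr, read in liver in part as the soluble receptor of leptin, stood at 68.7, 7.83, 84 and 108 against 2.17, 2.75, 8.3 and 13.5 CPM. Lepr of the second fasted male lay among the controls, and the log2 change of 3.55 became 2.40 without the first fasted male. Of 18 growth hormone and IGF genes, Ghr fell by 1.20, Igfals by 0.96 and Jak2 by 0.33, while Igfbp2 rose by 1.01 and Igfbp4 by 0.29 on the log2 scale. Igf1 was not called (-0.45, adjusted p = 0.0585). Igfbp1, a target of FOXO factors when insulin is low, stood at 251, 77, 136 and 497 CPM in fasted and 21.3, 36.5, 48.9 and 218 CPM in control mice. The second control female lay above 2 of the fasted mice, and the change was not called (log2 change 1.87, adjusted p = 0.0968). Of 19 genes of insulin signalling, Irs2 rose by 0.97, and 2 others rose and 4 fell, 2 without the first control male or the first fasted male.

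Genes that glucocorticoids induce rose in large part, with 11 of 20 higher and 1 lower and a median log2 change of 1.25. The count of rises was 7 without any 1 of 5 libraries (both control males, both control females and the second fasted male), and 3 with females alone. The metallothioneins, small metal-binding proteins that glucocorticoids and zinc induce, led them. Mt2 stood at 106, 63.5, 273 and 83.1 CPM in fasted and 0.639, 1.01, 7.99 and 17.7 CPM in control mice, 37.6-fold higher (adjusted p = 4.29e-05), and Mt1 at 149.8, 123, 618 and 359 against 3.17, 4.48, 29.9 and 68.7 CPM, 18.8-fold higher. In both genes the control females lay above the control males, and Mt1 and Mt2 are close relatives that can share reads. Fkbp5, a cochaperone that limits the receptor, stood at 109, 108, 105 and 64.1 against 15.6, 14.3, 56.6 and 35.3 CPM. Gadd45b rose by 2.27, Cebpd by 1.26 and the lipocalin Lcn2 by 2.95 on the log2 scale, and the calls of the last 2 (adjusted p = 0.0221 and 0.0196) were each lost without any 1 of 6 libraries. The receptor gene Nr3c1 fell by 0.56. Tat (-0.24) and Tsc22d3 (0.50 on the log2 scale), which the receptor also induces, were not called.

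The core clock gave 1 call in 13 genes. Per1 (ENSMUSG00000020893.18), a repressor of the loop that hormones and feeding can also induce directly, stood at 32.1, 33.6, 18.5 and 16.4 CPM in fasted and 5.04, 7.75, 3.92 and 10.0 CPM in control mice. Every fasted mouse lay above every control, and Per1 was 3.59-fold higher (log2 change 1.84, standard error 0.36, adjusted p = 0.000115). With females alone its log2 change was 1.33 and not called (adjusted p = 0.0577). Its upstream window, chr11:69098699-69098948 on the plus strand of GRCm38.p6 from RefSeq, is shown because it holds an E-box (CACGTG) 166 bases before the start and a D-box (TTATGNAA, bound by DBP and its relatives) 24 bases before it, both in capitals. A second Per1 start site in RefSeq has a window, chr11:69099902-69100151, with none of the motifs searched.

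Per1: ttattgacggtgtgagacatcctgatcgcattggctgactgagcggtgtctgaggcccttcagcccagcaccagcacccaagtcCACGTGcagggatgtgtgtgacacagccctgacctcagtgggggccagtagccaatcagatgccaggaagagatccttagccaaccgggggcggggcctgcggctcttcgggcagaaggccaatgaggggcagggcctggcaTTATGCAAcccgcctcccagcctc

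Among the 10 clock genes with a window, Ciart, Cry1 and Per1 held an E-box and Per1 and Per3 a D-box, against 8.09% and 3.99% of 27025 genes. Of the tested genes with a window, 10.8% held an E-box and 2.95% a D-box.

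The other 12 clock genes were not called, and some spread widely within a group. Dbp, an output gene of the clock, stood at 7.52, 39.2, 12.9 and 6.01 CPM in fasted and 72.1, 78, 13.3 and 1.67 CPM in control mice, so that the control males were above all fasted mice while the second control female was below all of them. In controls 4 h earlier, at CT24, Dbp stood at 1.116, 0.916, 1.15 and 0.838 CPM and 4 h later, at CT32, at 202, 201, 224 and 223 CPM. Bmal1, the positive arm, stood at 31.6, 20.5, 22 and 23 CPM in fasted and 9.66, 12.6, 31.2 and 39.5 CPM in control mice at CT28, against 29.6, 32.4, 37 and 38.2 CPM in the CT24 controls and 1.07, 1.47, 1.46 and 1.72 CPM in the CT32 controls. Between CT24 and CT32 the control level of Dbp went up steeply and that of Bmal1 down. In both genes the CT28 control females lay nearer to the CT24 levels than the control males did, and the 4 fasted mice spanned a narrower range than the 4 controls. Nr1d1, which encodes REV-ERBalpha and represses Bmal1, stood at 68.9, 152, 117 and 99.5 against 184, 197, 163 and 68.3 CPM (log2 change -0.44, adjusted p = 0.339). Without the second fasted male Dbp (-1.49, adjusted p = 0.00638), Per3 (-1.33, adjusted p = 0.00496), Per2 (-0.703, adjusted p = 0.0345) and Nr1d2 (-0.475, adjusted p = 0.0434) were called lower in fasted mice. Without the first control female the log2 change of Dbp was 0.409, and without the second it was -1.09 and called. Whether the sampled mice differed in phase was not tested.

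Among 16 genes at the output of the clock, Bhlhe40, a repressor that competes for E-boxes, fell by 1.62 on the log2 scale, from 72.4, 95.9, 70.03 and 57.3 CPM to 20.02, 40.2, 20.1 and 17.7 CPM. Cdkn1a, the cell cycle inhibitor p21, rose from 1.42, 2.2, 7.3 and 7.79 CPM to 68.1, 22, 24.4 and 31.6 CPM, 9.61-fold (adjusted p = 7.71e-06). Car3, an abundant carbonic anhydrase of liver and fat, fell from 4163, 4493, 2338 and 2390 CPM to 109.8, 293, 153 and 129 CPM, 19-fold. Por, which passes electrons to the cytochromes P450, rose by 1.68 and Alas1, the first enzyme of heme synthesis, by 1.27 on the log2 scale, and Upp2 fell by 1.36. The call of Alas1 (adjusted p = 0.0431) was lost in 7 of 8 fits that left out a library, while without the first control male its log2 change was 2.42 and called. In this group 3 genes were higher and 3 lower, and 6 were lower without the second fasted male.

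**Figure D3:**
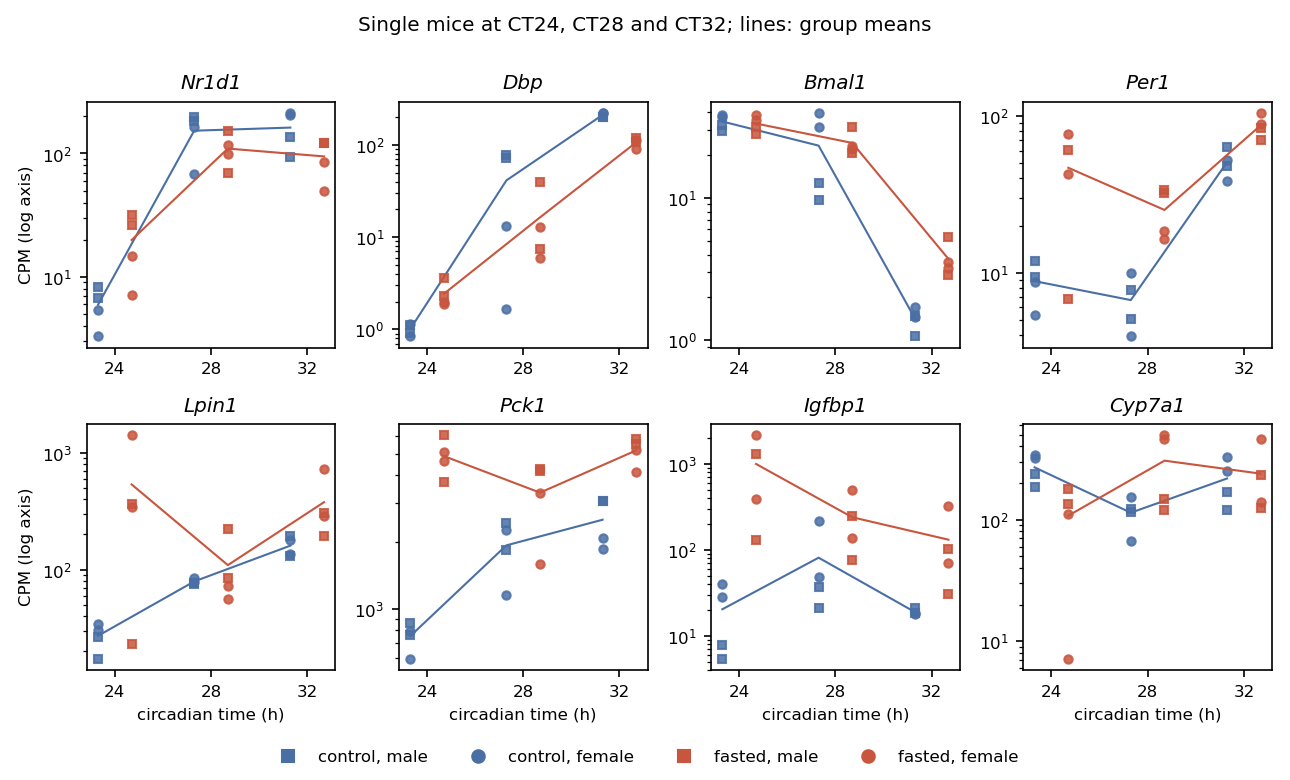
Single mice at CT24, CT28 and CT32 for 8 genes, in CPM on a log axis against circadian time in hours, with control points drawn slightly left and fasted points slightly right of each time, squares for males, circles for females and lines through the group means. Dbp and Bmal1 spread widely among the CT28 controls, Per1 is higher in all 4 fasted mice at CT28, and the gap between the treatments in Pck1 and Lpin1 is narrower at CT28 than at CT24.

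The effect at CT28 differed from that at CT24, after 14 h without food, for 80 genes (0.378% of those tested), 26 of them more positive and 54 more negative at CT28. The times share no libraries. Of the lists above, 2 of 13 clock genes, 2 of 24 genes of fatty acid uptake and activation and 1 each of gluconeogenesis, autophagy and the glucocorticoid response were among the 80, Lpin1 being counted in the fatty acid and glucocorticoid lists, while none of the 28 sterol genes, the 33 lipogenic genes, the 23 genes of mitochondrial oxidation or the 10 ketone body genes was. At CT24, CT28 and CT32 the log2 change of Srebf1 was -3.35, -3.03 and -2.88 and that of Cpt1a 1.75, 1.499 and 0.94. Of the 4448 genes called at CT28, 2808 were also called in the same direction at CT24, 2449 at CT32, and 1837 at both. At neither time were 1023 of them called in either direction.

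Of the 80, 14 genes are described here, some of them picked after their values were seen, so that their directions do not stand for the 80. For 13 of the 14 the log2 change was positive at CT24 and lower at CT28. Among all 80, 54 were more negative and 26 more positive at CT28. Lpin1, which makes diacylglycerol and also acts as a coactivator of PPARA, had a log2 change of 3.95 at CT24, of 0.33 at CT28 and of 1.15 at CT32. In controls its level went from 26.6, 17.2, 34.3 and 30.3 CPM at CT24 to 77.5, 75.3, 85.3 and 78.4 CPM at CT28, while in fasted mice it went from 366, 22.9, 1407 and 343 CPM to 85.2, 223, 72.4 and 56 CPM. The second fasted male of CT24 lay among the CT24 controls. Lpin2, its relative, went from a log2 change of 2.83 to 0.42 (difference -2.41, standard error 0.30, adjusted p = 1.64e-06). Pck1 went from 2.70 to 0.75 (adjusted p of the difference 0.0024). Pck1 of controls went between these times from 861, 759.5, 796 and 595 CPM to 1849, 2444, 1156 and 2277 CPM, and that of fasted mice was 6050, 3729, 5073 and 4658 CPM at CT24 and 4159, 4277, 1598 and 3317 CPM at CT28. The mean control level was thus higher at CT28 and the mean fasted level lower.

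The clock repressors Nr1d1 and Nr1d2 had log2 changes of 1.64 and 1.64 at CT24 and of -0.44 and -0.31 at CT28, with adjusted p of the difference of 0.0137 and 4.16e-07. Klf11 (CT24 2.11, CT28 -0.34), Fbxo32 (2.37 and 0.37), a ubiquitin ligase that FOXO factors induce, Klhl24 (1.23 and -0.14), Tcp11l2 (1.502 and -0.23) and Crebrf (1.61 and -0.10 on the log2 scale) went the same way. So did the amino acid transporters Slc7a2 (2.14 and 0.27) and Slc38a2 (1.21 and -0.38) and the autophagy kinase Ulk1 (0.93 and -0.09 on the log2 scale). Klf11, Fbxo32, Crebrf, Slc7a2 and Slc38a2 were picked from the 80 after their values were seen. Ppard, a receptor related to PPARA, went the other way, from -2.53 to -0.81. Its controls fell from 81.8, 57.4, 81.2 and 79.3 CPM at CT24 to 8.58, 10.9, 25.1 and 45 CPM at CT28, while its fasted level was 12.2, 11.1, 14.7 and 14.1 CPM and then 11.7, 11.5, 10.1 and 9.0 CPM. The count of 80 rested in part on single libraries of CT28: it was 34 without the first fasted female, 47 without the second control male and 51 without the second control female. The difference for Nr1d1, Slc38a2 and Slc7a2 was not called without at least 2 of the 8 CT28 libraries, each taken out in turn. With males alone 205 genes were called, and 3 of the 14 described lost the call. With females alone 5 genes were called, and 13 of the 14 lost it.

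Some genes with a wide gap between the times did not pass this test. Igfbp1 had a log2 change of 6.01 at CT24 and 1.87 at CT28 (adjusted p of the difference 0.109), Pdk4 of 1.86 and -0.29 (adjusted p = 0.187), and Cyp7a1, the rate-limiting enzyme of bile acid synthesis, of -1.45 and 1.15 (adjusted p = 0.198). Cyp7a1 at CT28 stood at 119.6, 147, 494 and 462 CPM in fasted and 115, 121, 67.1 and 152 CPM in control mice, with the fasted females above all others.

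**Figure D4:**
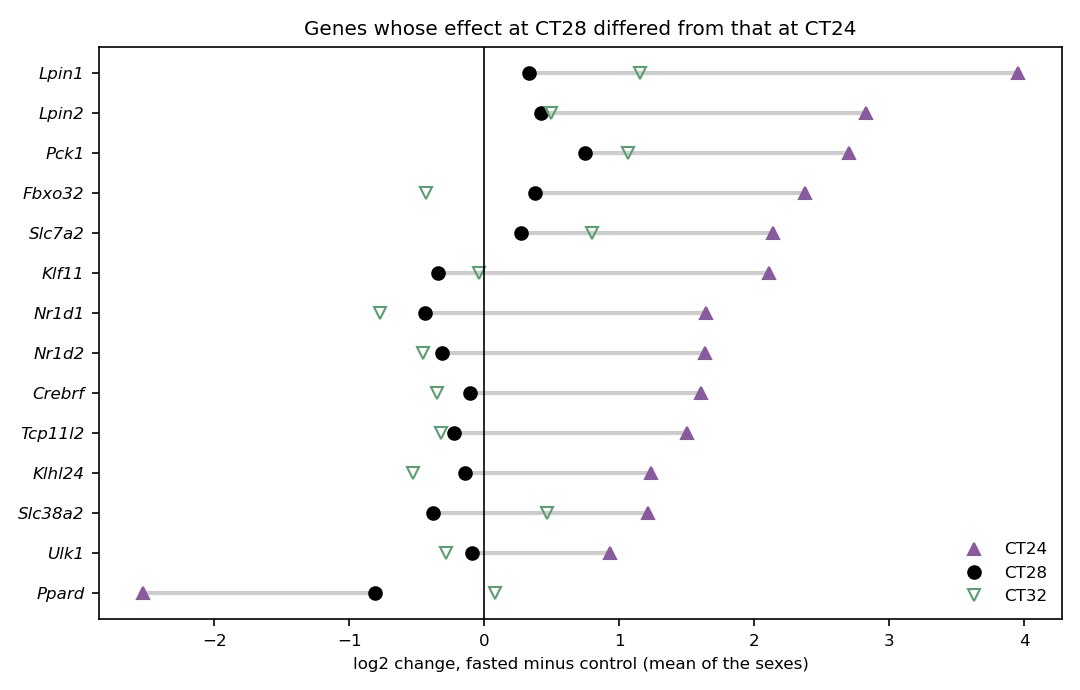
Log2 change, fasted minus control, at CT24 (triangles up), CT28 (dots) and CT32 (open triangles down) for 14 genes whose effect at CT28 differed from that at CT24. For 13 of them the dot lies left of the CT24 triangle, and for Ppard it lies right of it. Some of the 14 were picked after their values were seen, and among all 80 such genes 54 were more negative and 26 more positive at CT28.

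Between CT28 and CT32, after 22 h without food, edgeR called 0 genes (0%), with 1226 genes at an unadjusted p under 0.05, while limma called 1 and DESeq2 called 9. The smallest p belonged to Plekhg3. It stood at 52.2, 62.7, 83 and 83.6 against 42.8, 48.8, 38.7 and 43.2 CPM at CT28, and its log2 change was 0.67 at CT28 and -0.13 at CT32 (adjusted p of the difference 0.0527). Arhgef19 (CT28 -0.31, CT32 0.65), ENSMUSG00000126038.1 (1.72 and -0.08) and Arhgef37 (-0.92 and 0.12), all on the log2 scale, followed, and then Ccdc85b.

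The fasting effect differed between the sexes for 12 genes at CT28 (0.0566% of those tested), 11 of them more negative in females and 1 more negative in males. In most the control females were the high group. Loxl4, a lysyl oxidase of the extracellular matrix, stood at 2.58 and 2.6 CPM in control males and 21.1 and 46.4 CPM in control females, against 5.77 and 2.2 CPM in fasted males and 1.8 and 2.6 CPM in fasted females. The log2 change was 0.62 in males and -3.94 in females, a difference of -4.55 (standard error 0.62, adjusted p = 7.27e-05). Ppard stood at 8.58 and 10.9 CPM in control males and 25.1 and 45 CPM in control females, against 11.7 and 11.5 and 10.1 and 9.0 CPM in fasted males and females (difference -2.13, adjusted p = 0.00235). Ndrg1 stood at 14.4 and 15.6 CPM in control males and 60.0 and 48.5 CPM in control females, and Npas2, a clock partner of BMAL1, at 1.35 and 1.74 and 16.2 and 16.1 CPM. Chka, the first kinase of phosphatidylcholine synthesis, stood at 46.1 and 46.4 CPM in control males and 121 and 162 CPM in control females. Fasted females were below control females in all 5 of these genes.

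In controls, 4 of these 5 genes were higher at CT24 than at CT32 in every mouse. Npas2 stood there at 11.4, 12.8, 25.2 and 23.5 CPM and at CT32 at 0.0744, 0.0867, 0.455 and 0.506 CPM. Chka stood at 149.5, 153, 205 and 162 CPM at CT24 and 15.6, 16, 17.3 and 13.9 CPM at CT32, and Loxl4 at 9.32, 11.3, 58.1 and 71.8 CPM and then 1.22, 1.53, 2.91 and 1.45 CPM. Ppard, high at CT24 as given above, stood at 10.8, 10.2, 9.1 and 11.2 CPM at CT32. In these 4 genes the CT28 control females lay nearer to the CT24 controls than the CT28 control males did, as for Dbp and Bmal1. Ndrg1 did not show this: it stood at 14.2, 19.3, 61.9 and 67.2 CPM in the CT24 controls, so that its control males were about as low at CT24 as at CT28. Nor did Arhgef37, with CT28 controls at 19.7, 20.8, 30.3 and 31.8 CPM. Its controls stood at 15.1, 16.5, 19.1 and 23 CPM at CT24 and at 18.8, 16, 27.4 and 23.7 CPM at CT32. Among the CT24 controls the females already stood above the males in Loxl4, Npas2 and, less so, Chka, so that pooling the sexes there favours the females. In CPM, the CT28 control females of Loxl4 lay further from the CT24 females than the CT28 males lay from the CT24 males. Septin7 and Ifit1 are not compared here, and whether the control females differed in phase was not tested.

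The interferon targets Rsad2 and Ifit1 had the sexes in opposite directions. Rsad2 stood at 29.4 and 23.9 CPM in fasted and 10.7 and 10.1 CPM in control males, and at 12.5 and 17.6 CPM in fasted and 21.5 and 23.9 CPM in control females. Ifit1 stood at 13 and 15.8 against 7.69 and 8.22 CPM in males and 6.01 and 9.39 against 24 and 18 CPM in females. Septin7 and Arhgef37 had log2 changes of -0.56 and -1.72 in females and of 0.10 and -0.11 in males. Ttc39c, which is high in males, was the gene with the more negative change in males, from 593 and 652 CPM in control to 202 and 267 CPM in fasted males, against 76.9 and 76.6 and 88.3 and 80.6 CPM in females. The other 2 were the unnamed loci Gm22146 and Gm42547. With 2 mice of a sex and treatment, the calls rested on few values. The count was 11 without the second fasted male and between 1 and 7 without each other library, and a fit of the 8 CT28 libraries alone called none, with 2118 genes at an unadjusted p under 0.05.

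**Figure D5:**
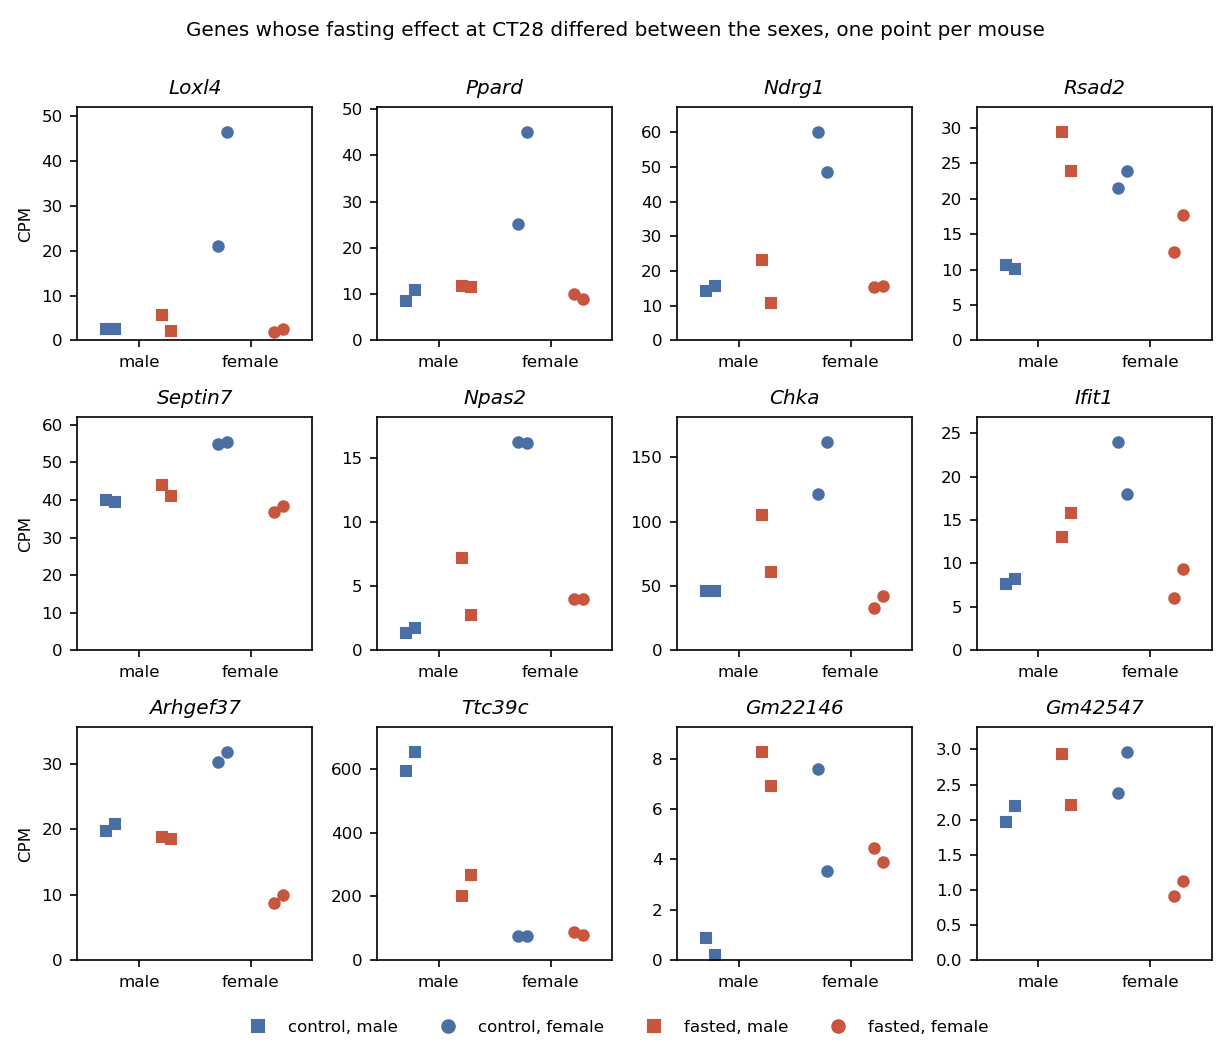
Levels in CPM, on axes that start at 0, of the 12 genes whose fasting effect at CT28 differed between the sexes, with one point per mouse, males (squares) on the left and females (circles) on the right of each panel, control in blue and fasted in red. Control females are the highest pair for Loxl4, Ppard, Ndrg1, Npas2, Chka, Septin7, Ifit1 and Arhgef37, and control males for Ttc39c.

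Transcripts of protein handling shifted with fasting. Of 25 chaperones and sensors of the endoplasmic reticulum 11 were lower and none higher, with a median log2 change of -0.39. Sdf2l1 fell from 52.3, 27.3, 20.9 and 29.8 CPM to 6.48, 28.5, 7.54 and 8.11 CPM, with the second fasted male well above the other 3, and its log2 change of -1.44 became -2.15 without that mouse. Pdia6, a disulfide isomerase, fell by 1.24, Calr and Canx, the calreticulin and calnexin that retain unfolded glycoproteins, by 0.69 and 0.66, while Hspa5, the main chaperone, was not called (-0.27 on the log2 scale). Without the first control male, the first fasted male or the first fasted female 7 of the 25 were lower. Of 35 proteasome genes 17 were higher and 2 lower, with small changes: the largest rise was that of Psmd4 (0.66), and the 2 that fell, Psme1 (-0.45) and Psme2 (-0.68), encode the activator that interferon induces. The fall of Psme1 was not called without the first control male, the first fasted male or the first fasted female. With males alone 5 proteasome genes were higher, and without the filter on low counts 7. Of 67 ribosomal protein genes 9 were lower and none higher, a share near that of all genes, with a median of -0.05. Among 28 autophagy genes 8 rose and 2 fell, led by Bnip3, a receptor for mitochondria (1.44), and Map1lc3a (0.86 on the log2 scale). Eif4ebp3, a brake on translation and 1 of 10 largest rises, stood at 10.2, 32, 12.2 and 11.5 against 1.51, 1.14, 1.06 and 0.592 CPM (15-fold higher), while Atf4, the factor of the integrated stress response, fell by 0.42, a call (adjusted p = 0.0356) lost without any 1 of 6 libraries. In that group 4 of 23 were higher and 3 lower, 1 without the first control male, the first fasted male or the second fasted female. Of 19 heat shock and cold-inducible genes 3 were higher and none lower, Hspa8 (0.82), Rbm3 (0.88) and Hsf1 (0.25), the last lost in 7 of 8 fits that left out a library.

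Amino acid and one-carbon genes did not move as groups. Of 12 urea cycle genes 4 rose and 2 fell: Asl, which releases arginine, rose by 1.52 and Arg1 by 0.90, while Otc fell by 0.74 and Glud1 by 0.69 on the log2 scale. Of 46 genes of amino acid breakdown 9 were lower and 4 higher, the latter Sdsl (1.56), Aass (1.29), Tdo2 (0.68) and Hpd (0.51). Without the first fasted male the rise of Sdsl was 1.17 and not called (adjusted p = 0.0508). Of 32 one-carbon genes 7 were higher and 7 lower. Mat1a, the liver enzyme that makes S-adenosylmethionine, stood at 13273, 10797, 8585 and 8200 CPM in fasted and 2724, 2122, 3574 and 3916 CPM in control mice, 3.34-fold higher (adjusted p = 1.98e-10). Ahcy, which clears S-adenosylhomocysteine, stood at 1962, 2176, 1948 and 1688 against 1062, 912, 803 and 932 CPM, 2.1-fold higher, and Bhmt, which remethylates homocysteine with betaine, rose by 1.00 (adjusted p = 0.0192), a call lost under 5 of 19 alternatives. Among genes that use methyl groups, Gamt, for creatine, fell from 134, 153, 205 and 134 CPM to 37, 59, 38.2 and 29.8 CPM, Pemt, for phosphatidylcholine, fell by 0.66, and Gnmt was not called (-0.12 on the log2 scale).

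Bile acid, drug and growth genes changed singly. Of 24 bile acid genes 5 fell, led by Cyp2c70 (-2.92), the mouse enzyme that makes muricholic acids, and the export pump Abcb11 (-1.43), and 3 rose, Abcb4 (1.11), Cyp8b1 (1.03) and Nr1h4 (0.39), the last not called without the second control female, the first fasted female or the second fasted male. Of 31 cytochrome P450 and related genes 9 rose and 7 fell. Cyp2b10, a target of the receptor CAR, stood at 17.2, 10.2, 119 and 58.3 against 0.616, 0.538, 19.95 and 70.03 CPM. Its log2 change was 4.56 in males and 0.98 in females, a difference that was not called. Cyp17a1, a steroid hydroxylase, stood at 201, 111, 377 and 359 against 10.1, 5.77, 196 and 142 CPM. Fasted and control mice overlapped in both genes, and the call of each was lost under 2 of 19 alternatives. Cyp2c55 fell from 8.49, 8.97, 3.25 and 21.2 CPM to 1.08, 0.84, 0.556 and 0.165 CPM and Cyp1a2, a target of the aryl hydrocarbon receptor, by 1.66 on the log2 scale. Both Cyp2b10 and Cyp2c55 were highest among controls in the second female, and without it their log2 changes were 3.36 and -3.17. The Cyp2c genes share sequence, and their single values are uncertain. Of 22 glutathione and NRF2 genes 7 fell and 2 rose, with 3 falls without the second fasted male or the first fasted female and 4 without the second control male. Of 26 cell cycle genes 6 fell, Mcm5 most (-1.59), and 1 rose, Cdkn1a, with 3 falls without the second control female. Of 26 acute phase genes 7 rose and 1, Saa4, fell (-1.19 on the log2 scale). The fall of Saa4 was 1.01 and not called without the first fasted male, and the acute phase rises numbered 4 without either control male or the second fasted male.

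The rule for the largest changes named 7 further genes. Apoa4, an apolipoprotein that rises with fat flux through liver, stood at 4830, 2851, 2080 and 3977 CPM in fasted and 218, 146, 239.8 and 216 CPM in control mice, 16.7-fold higher (adjusted p = 1.99e-12). Cntnap1, known from the axon, stood at 45.6, 20.4, 18.9 and 43.4 against 2.37, 1.98, 2.72 and 1.84 CPM. The uncharacterised 1810053B23Rik stood at 12.7, 9.53, 14.8 and 11.1 against 0.365, 0.0646, 1.18 and 4.04 CPM, and its log2 change of 4.01 became 4.85 without the first control male. The noncoding Gm48199 stood at 54.9, 23.6, 7.97 and 27.4 against 1.6, 0.194, 0.138 and 2.98 CPM, and its log2 change of 4.50 became 6.23 without the second control female and 5.59 without the first control male. Among the falls, Chrna4, a subunit of the nicotinic acetylcholine receptor, stood at 0.173, 1.38, 0.267 and 0.0206 CPM in fasted and 18.6, 14.8, 44 and 29 CPM in control mice, 73.3-fold lower, and the log2 change of -6.20 became -7.49 without the first fasted female and -7.28 without the second fasted male. Gm3571 stood at 0.641, 0.84, 0.579 and 0.35 against 20.6, 16.3, 27 and 12.6 CPM and Gm32006 at 0.789, 1.41, 0.534 and 1.83 against 16, 30.6, 25.1 and 15.2 CPM. All fasted mice lay outside the control range in each, as the rule required.

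Markers of other cell types were summed in each library. Summed over 10 Kupffer cell markers the level was 326.1 to 543.4 CPM in fasted and 369.4 to 662.9 CPM in control mice, over 8 endothelial markers 442 to 555.3 against 504.4 to 610.6 CPM, and over 8 stellate markers 369.2 to 512.2 against 383.6 to 574.9 CPM. Of these 26 markers 2 were higher and 6 lower. The 6 cholangiocyte, 9 lymphocyte and 4 tested neutrophil markers gave no call. Erythroid markers summed to 113.9 to 194.9 against 71.82 to 234.4 CPM, with 3 of 5 higher and 1 lower. Pancreatic and gut markers summed to 2.47 to 6.356 in fasted and 6.34 to 24.39 CPM in control mice, with 1 of 7 lower and Pnlip and Try4 at 0 in all 8 libraries. The adipose markers Retn and Lep were at 0 as well, and the 2 adipose markers tested were not called. The 11 hepatocyte markers summed to 103400 to 126200 against 94840 to 134500 CPM, with 2 higher and 3 lower. The part of these levels in the results was not tested.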

How the data were processed

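Poly(A) RNA from the left liver lobe of single mice was sequenced in pairs with a stranded kit. Per the labels the submitters used Trimmomatic, HISAT2 and DESeq2 with the GRCm39 build, without versions, and the counter and annotation release are not given in the sources used here. The raw counts per gene that the authors deposited were used, while their normalised table and their table of exon bins were not used. All 80 libraries were fitted together in edgeR 4.0.16 (R 4.3.3) with the quasi-likelihood test, TMM scaling, the default filter on low counts, a trended dispersion and 40 means, 1 per treatment, time and sex. Contrasts were averaged over the sexes, and p-values were adjusted by Benjamini-Hochberg over 21187 genes, with a threshold of 0.05. Log2 changes carry standard errors from this fit. Total counts were compared by an exact permutation test. The scripts were tested on simulated data.

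Named genes were the 10 largest rises and 10 largest falls among called genes that averaged a log2 CPM of 1 or more and whose groups did not overlap, the 5 smallest p of each difference between effects, and members of gene lists. Some genes that these rules take in are not reported here. Members and lists were chosen with earlier results of these data known. Replicate numbers are shared across groups, but same-numbered samples did not deviate together (r = 0.00174 in males, -0.00063 in females), so they were not paired. No pair of CT28 libraries of the same treatment agreed within sampling noise. Each library is a mouse, each sequenced once. Limma 3.58.1, DESeq2 1.42.0, other scalings, filters, models and sample subsets, and each CT28 library left out in turn, were tried as alternatives. Fits of either sex alone for the differences between times, and list counts under each setting, were added after seeing the data. Promoter windows came from RefSeq on GRCm38.p6, another build than that of the counts, matched by gene symbol, and 12522 tested genes had one. The motifs searched on both strands were CACGTG, TGACGTCA, TCACNCCAC, TTATGNAA and the DR1 element.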

Additional observations from a re-analysis of the deposited data

Results flagged for a closer look

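Of 362 groups of 4 libraries checked, 21 held a library whose gap to its nearest neighbour, as a share of the range, exceeded Dixon's 95% limit, and chance alone gives about 1 in 20. The second fasted male was high in Hspa8 (gap share 0.965), Nr1d2 (0.918), Sdf2l1 (0.849), Eif4ebp3 (0.845) and Bhlhe40 (0.842). Its share of counts from the ribosomal Rn18s-rs5 was also high, at 0.128% against 0.0697% to 0.0768% in the other fasted mice (gap share 0.878). The first fasted male was low in Cyp4a10 (0.857), and the second fasted female low in Fkbp5 (0.931).

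Among controls the first female was high in the lipogenic and sterol genes Acaca (gap share 0.971), Hmgcs1 (0.933), Fasn (0.874) and Acss2 (0.834) and low in G6pc1 (0.892). The second female was low in Angptl4 (0.985), Pygl (0.925), Pklr (0.919), Gbe1 (0.913), Plin2 (0.882), Hadha (0.849), Acadm (0.841) and Slc37a4 (0.83). Plin2 in that mouse was 221 CPM against 401 to 435 CPM in the other controls, and Pklr was 118 CPM against 318 to 347 CPM. Genes that rose with fasting and genes that fell with it were thus both low there.

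The effect differed between the sexes, by a test of the difference, for 12 genes. The female minus male difference in log2 change was -4.55 for Loxl4, -4.20 for Gm22146, -3.70 for Npas2, -2.75 for Chka, -2.30 for Ifit1 and -2.13 for Ppard. It was -1.97 for Ndrg1, -1.95 for Rsad2, -1.68 for Gm42547, -1.61 for Arhgef37, -0.65 for Septin7 and 1.55 for Ttc39c. The effect differed between CT24 and CT28 for 80 genes. The CT28 minus CT24 difference was -3.62 for Lpin1, -2.45 for Klf11, -2.41 for Lpin2, -2.08 for Nr1d1, -2.002 for Fbxo32, -1.95 for Pck1 and -1.95 for Nr1d2. It was -1.87 for Slc7a2, -1.73 for Tcp11l2, -1.71 for Crebrf, -1.59 for Slc38a2, -1.38 for Klhl24, -1.02 for Ulk1 and 1.72 for Ppard.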

How the results depend on the processing

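The counts of calls are given in the order CT28 change, sex difference, CT24 difference and CT32 difference, which were 4448, 12, 80 and 0. At an adjusted p of 0.01 they were 2736, 2, 24 and 0, and with a minimum change of 1.5 times 732, 2, 9 and 0. Limma gave 4427, 14, 76 and 1, and the DESeq2 Wald test 4805, 42, 214 and 9. DESeq2 size factors, upper quartile scaling and a CPM filter each gave 1 call for CT32. With no filter on low counts 45359 genes were tested and the last 3 counts were 640, 602 and 300. With only the libraries of the times compared they were 0, 36 and 1, and with no sex in the model 14 genes were called for CT24. Males alone gave 2158 genes for CT28 and 205 for CT24, and females alone 2131, 5 and, for CT32, 6. Leaving out each CT28 library in turn gave 3216 to 3766, 1 to 11, 34 to 77 and 0 to 2. No CT24 or CT32 library was left out, so the last 2 ranges do not cover the libraries of those times. Causes of these differences were not tested.

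With the replicate number as a block, although the numbers do not pair the mice, the counts were 4397, 13, 71 and 1.

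Gene by gene, 19 alternatives were run, which do not include the stricter adjusted p and the minimum change, and Pnpla3 had a result in 18 of them. Of the 140 genes named as called at CT28, 84 kept their direction and call under every alternative that gave them a result. The others lost the call under at least 1, and 6 of them changed direction. With males alone the log2 changes of Ppard (0.256), Loxl4 (0.618), Ndrg1 (0.170), Septin7 (0.0991) and Nr1h4 (-0.00582) turned, and with females alone that of Ttc39c (0.141). Among genes not called, males alone turned Npas2 (1.69, then called), Ifit1 (0.858), Chka (0.843), Tat (0.475), Pdk4 (0.263), Gnmt (0.153), Slc38a2 (0.0702), Crebrf (0.0384) and Ggps1 (0.0207). Females alone turned Bmal1 (-0.648), Rsad2 (-0.588), Lpin1 (-0.347), Dbp (0.336), Per3 (0.215), G6pc1 (0.0577) and Ulk1 (0.0370). Leaving out each CT28 library in turn gave ranges that crossed 0 for Dbp (-1.49 to 0.409), Tat (-0.529 to 0.275), G6pc1 (-0.426 to 0.151), Npas2 (-0.580 to 0.114), Lpin1 (-0.0883 to 0.596), Ulk1 (-0.213 to 0.0697) and Pdk4 (-0.675 to 0.0389), none of them called with all libraries. All 12 sex differences and 13 of 14 named CT24 differences lost the call under at least 1 of these alternatives, the exception being Nr1d2.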
